A study of Mus musculus with 2 samples.

Results

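Transcripts of 6 mast cell and basophil genes were examined in mouse haematopoietic progenitors: the carboxypeptidase gene Cpa3, the tryptase gene Tpsb2, the chymase-family genes Mcpt1 and Mcpt8, and Fcer1a and Ms4a2, which encode the alpha and beta chains of the high-affinity IgE receptor. Members were all probe sets annotated to these genes alone, which gave 10 probe sets for 6 of the 8251 genes named on the array. Cpa3, Tpsb2, Mcpt1 and Mcpt8 had 2 probe sets each, and Fcer1a and Ms4a2 had 1 each. RNA came from Lin-c-kit+Sca1+ cells sorted from mouse bone marrow, a fraction enriched for stem and multipotent progenitor cells, and was amplified in 2 rounds before hybridisation, per the labels. There were 2 samples of this 1 group, called sample 1 and sample 2. The labels give no strain, age, treatment or second group, and leave unsaid whether separate animals or sorts were used, so the spread between them may be technical.

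Mast cells and basophils carry granules filled with proteases that are stored in complex with acidic proteoglycans and released when IgE on the cell surface is crosslinked by antigen. The IgE receptor of mouse mast cells combines an alpha chain that binds IgE, a beta chain that amplifies the signal and a pair of gamma chains that start it. Mature mast cells and basophils descend from bone marrow progenitors, and Cpa3 transcription begins early on that path, before the granules are formed. Tpsb2 encodes the tryptase mouse mast cell protease 6 of connective tissue mast cells, Mcpt1 a chymase of mucosal mast cells, and Mcpt8 a granule protease that marks mouse basophils.

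Signals were quantile-normalized between the arrays, and those under 20 were set to a floor of 20 before log2, which held 57.6% of the probe sets in each sample. Where 1 sample was at the floor, the fold given is the smallest it could be and is marked "at least". Each sample's background level was taken from 15 probe sets for bacterial genes, as their 90th percentile, which was 12.1 in sample 1 and 8.91 in sample 2. A stricter level came from 51 measured genes of other organs such as liver, brain and testis. Taken likewise over their 61 probe sets, it was 33.3 in sample 1 and 37.0 in sample 2. With 2 samples of 1 group no gene could be tested, and the number of arrays limits the precision of every value.

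The promoter windows of Cpa3, Mcpt1 and Mcpt8 are shown because these are protease genes with a probe set above the background level and a RefSeq promoter in the table used. Each line gives the 150 bases before the transcription start in GRCm38.p6, read 5′ to 3′ on the gene's strand. Capitals mark matches on either strand to the letters that GATA factors bind (AGATAA or TGATAA, and likewise AGATAG or TGATAG), to TATAAA, the TATA box, and to TGTGGT, the core of RUNX sites.
Cpa3 (chr3:20242182-20242331, minus strand): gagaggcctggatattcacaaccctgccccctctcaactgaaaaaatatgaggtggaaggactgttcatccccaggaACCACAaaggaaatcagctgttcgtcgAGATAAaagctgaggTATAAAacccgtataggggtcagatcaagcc
Mcpt1 (chr14:56017814-56017963, plus strand): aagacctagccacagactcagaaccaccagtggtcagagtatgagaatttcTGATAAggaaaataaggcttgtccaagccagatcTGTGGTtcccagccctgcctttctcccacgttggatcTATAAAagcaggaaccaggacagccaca
Mcpt8 (chr14:56085198-56085347, minus strand): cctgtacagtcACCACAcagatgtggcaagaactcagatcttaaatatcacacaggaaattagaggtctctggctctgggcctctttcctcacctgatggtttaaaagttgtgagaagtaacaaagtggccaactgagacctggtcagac

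Over the 250 bases before the start, 5 members had a window in the table, and Tpsb2 did not. The GATA letters were found in 4 of these 5, once in Cpa3, Mcpt1 and Fcer1a and 3 times in Ms4a2, against 26.5% of all 32851 promoter windows. The Cpa3 match began 46 bases before the start and the Mcpt1 match 99 bases before it. TATAAA was found in 3 of 5 (Cpa3, Mcpt1 and Fcer1a), against 12.4% of all windows. Its matches began 242 and 31 bases before the start in Cpa3, 28 in Mcpt1 and 125 in Fcer1a. TGTGGT was found in 4 of 5, every one except Ms4a2, against 14.0%. The Mcpt8 window held 2 TGTGGT matches and neither of the other motifs. These are letter matches in fixed windows, and no motif overlapped another in the lines shown.

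Of the 6 genes, the 4 protease genes Cpa3, Tpsb2, Mcpt1 and Mcpt8 had a probe set above the background level in both samples, and the IgE receptor genes Fcer1a and Ms4a2 did not. The background for this count is high, since 57.0% of all 8251 genes passed the same level. Above the stricter organ gene level in both samples were 2 of 6, Cpa3 and, by a small margin in sample 1, Tpsb2, against 25.2% of all genes. Shares this close to those over all genes are not a result about these 6 genes. None of the 4 protease genes had both of its probe sets above the background level in both samples. Because RNA was measured in bulk, a few cells with much of a transcript and many cells with little of it cannot be told apart.

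**Figure D1:**
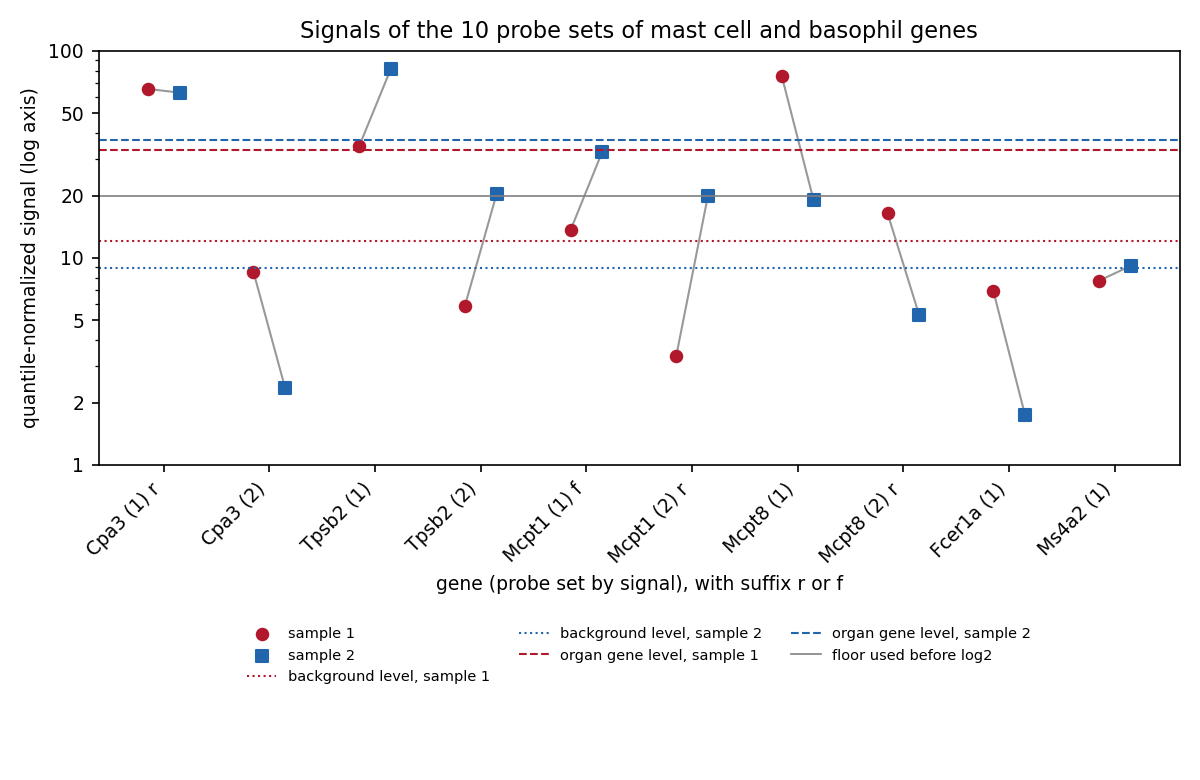
Quantile-normalized signal (log axis) of the 10 probe sets in sample 1 (circles, left) and sample 2 (squares, right), with grey lines joining the 2 samples, dotted lines at the background levels (12.1 and 8.91), dashed lines at the organ gene levels (33.3 and 37.0) and a grey line at the floor of 20. Probe sets of a gene are numbered by signal, and r or f is the suffix of the probe set. Only the stronger probe set of Cpa3 has near-equal signals well above every line, while those of Tpsb2 and Mcpt8 slope in opposite directions.

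Cpa3, which encodes the zinc-dependent exopeptidase of mast cell granules, differed least between the samples among the 4 protease genes by their stronger probe sets, but its own probe sets disagreed on whether it was measured. Its stronger probe set gave a deposited intensity of 67.3 in sample 1 and 60.8 in sample 2, or 65.4 and 62.8 after normalization. The mean log2 signal was 6.0 ± 0.04 (SD, n = 2), a difference of 0.06 between sample 1 and sample 2. The SD of 0.04 is far under the replicate SD of 0.58 over the 6118 probe sets above the background level in both samples. Those of them at the floor in both samples enter that figure with an SD of 0, which lowers it. The other Cpa3 probe set gave 8.55 in sample 1 and 2.35 in sample 2, not above the background level in either. The stronger of the probe sets carries the suffix r, by which the manufacturer marks probe sets that did not meet all of its probe selection rules, and the weaker carries no such letter. On the unmarked probe set alone, Cpa3 would not be counted as measured.

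Tpsb2, the tryptase gene, was the protease gene with more signal in sample 2 that also exceeded the floor in both samples. Its stronger probe set gave deposited intensities of 35.8 in sample 1 and 79.6 in sample 2. After normalization these were 34.6 and 81.8, with a mean log2 signal of 5.73 ± 0.88 (SD, n = 2). Sample 1 was lower by 1.24 on the log2 scale, so sample 2 was 2.36-fold higher. The weaker probe set gave 5.85 in sample 1, under the background level, and 20.3 in sample 2. It moved in the same direction, 3.47-fold on the unfloored signals. Neither Tpsb2 probe set carries a suffix letter. Averaged over both probe sets with the floor, the difference was -0.63 in place of -1.24.

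Mcpt1, the mucosal chymase gene, was near the limit of detection. Its stronger probe set gave deposited intensities of 14.1 in sample 1 and 31.3 in sample 2, and normalized signals of 13.6 and 32.5. Sample 2 was at least 1.62-fold higher, as sample 1 was at the floor. The weaker probe set gave 3.35 in sample 1 and 19.9 in sample 2, so that only sample 2 passed its background level. Both are marked ones, the stronger with f, for probes that can match several members of a gene family, and the weaker with r. The chymase genes are close relatives, so signal from another family member cannot be separated from that of Mcpt1 on this array.

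Mcpt8, the basophil protease gene, had the largest difference of the 4 and the opposite direction to Tpsb2 and Mcpt1. Its stronger probe set gave deposited intensities of 77.0 in sample 1 and 18.1 in sample 2. The normalized signals were 75.2 and 19.0, with a mean log2 signal of 5.28 ± 1.35 (SD, n = 2). Sample 1 was at least 3.76-fold higher, since sample 2 was just under the floor while above its background level. The weaker probe set, marked r, gave 16.4 in sample 1 and 5.28 in sample 2, and only sample 1 was above the background level. The log2 difference of 1.91 was 1.07 with an offset of 32 and 0.96 with the mean over both probe sets, the second of which is under 2-fold.

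Among the 6118 probe sets above the background level in both samples, 10.5% were 2-fold or more higher in sample 1 and 9.4% were 2-fold or more higher in sample 2. Of the 4 members among them, 1 (Mcpt8) was higher in sample 1 by this rule and 1 (Tpsb2) higher in sample 2, so the members had no common direction. With a floor of 10 the Mcpt1 difference was -1.26 in place of -0.70, which is also 2-fold or more higher in sample 2. The 2 probe sets of a gene pointed the same way on the unfloored signals in 4 of 4 member genes, namely higher in sample 1 for Cpa3 and Mcpt8 and in sample 2 for Tpsb2 and Mcpt1. Over all 1653 genes with exactly 2 probe sets of unequal signals this was so in 53.2%. In each of the 4 weaker probe sets at least 1 sample was not above its background level. A ranking of other genes by likeness to the members was not made, as 2 samples give no measure of it.

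**Figure D2:**
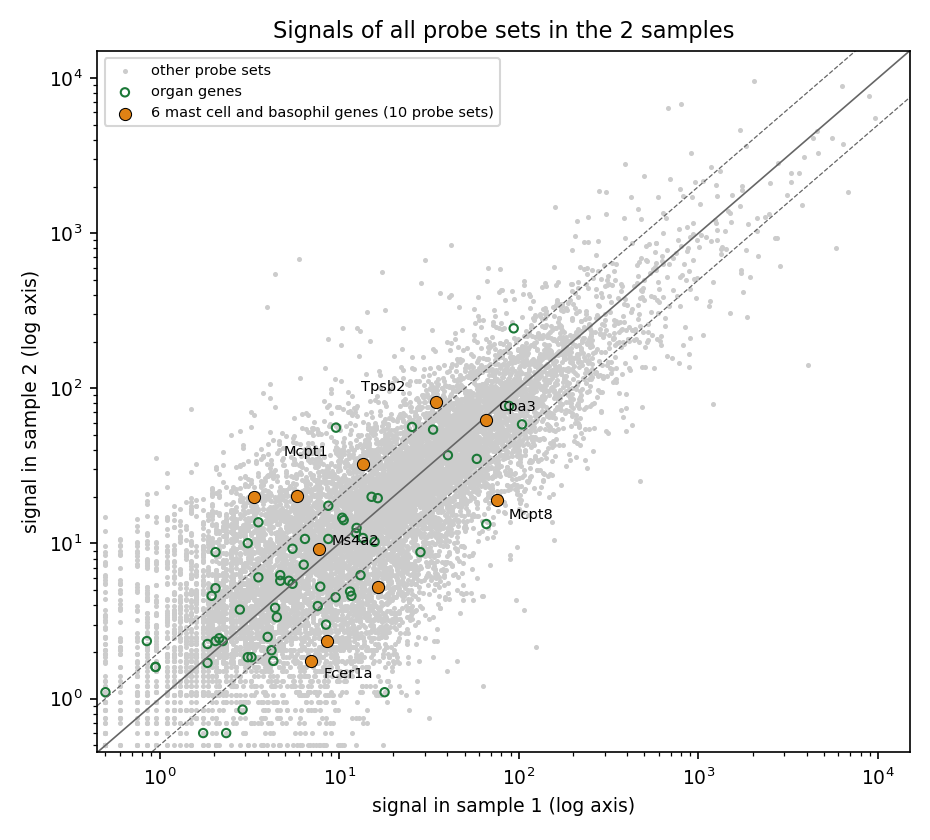
Quantile-normalized signal in sample 1 (x, log axis) against sample 2 (y, log axis) for the probe sets other than array controls, with the 10 member probe sets in orange (the strongest of each gene named) and organ genes as green rings. Values under 0.5 are drawn at 0.5, the solid line is equality and dashed lines are 2-fold. Cpa3 lies on the line of equality, Tpsb2 above and Mcpt8 below the dashed lines, and all members lie among other probe sets and organ genes.

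Organ genes set the scale of these values. Of 51 measured organ genes, 14 (27.5%) were above the background level in both samples, with highest signals of 104 in sample 1 and 244 in sample 2. The median over the 61 organ probe sets was 5.5 in sample 1 and 5.75 in sample 2, so the genes named next are among the strongest. By their stronger probe sets, the spermatid gene Tnp1 had 93.7 and 244 and the lens gene Crybb2 88.3 and 77.0. The other probe set had 0.95 and 1.6 for Tnp1 and 2.05 and 5.15 for Crybb2. The growth hormone gene Gh had 104 and 58.6. The skin gene Lor had 66.0 in sample 1 and 13.4 in sample 2, the same direction as Mcpt8. Its other probe set had 4.4 and 3.85. The pancreatic gene Ctrb1 had 25.5 and 56.4. The cardiac gene Nppa, not above the background level in sample 1, had 9.60 and 55.8. The size of a signal alone therefore did not set the protease genes apart from these stronger organ genes on these arrays.

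Mcpt1 and Mcpt8 lie in a cluster of granule protease genes on chromosome 14, which runs from the chymase gene Cma1 through the Mcpt genes and cathepsin G (Ctsg) to the granzymes in the order of the GRCm38.p6 gene table. Of 13 protease genes of this stretch with a probe set of their own, 6 were above the background level in both samples, beside 57.0% of all genes. These were Cma2, Mcpt1, Mcpt8, Ctsg, Gzmg and Gzmb. With the floor of 20, Mcpt8 and Ctsg, the protease genes next to each other in that order, were the 2 of these 6 that were 2-fold or more higher in sample 1, and 0 were so in sample 2. The second count depends on the floor, since Mcpt1 was 2.40-fold higher in sample 2 on the unfloored signals. Ctsg, a protease of neutrophil and monocyte precursors as well as mast cells, had 84.2 in sample 1 against 17.7 in sample 2, at least 4.21-fold higher in sample 1, beside 75.2 and 19.0 for Mcpt8. The granzyme gene Gzmb, of cytotoxic lymphocytes, had 24.7 and 25.3. The chymase gene Cma2 had 16.1 and 17.5, both under the floor.

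The chymase genes Mcpt4, Cma1 and Mcpt2 were not above the background level in both samples. Mcpt4, of connective tissue mast cells, had 2.80 in sample 1 and 0.75 in sample 2. The strongest of the 3 Cma1 probe sets had 13.1 in sample 1 and 2.15 in sample 2. Mcpt2, a mucosal chymase gene like Mcpt1, had 5.65 in sample 1 and 13.9 in sample 2, above the background level in sample 2 alone. The second tryptase gene Tpsab1 had 1.95 in each sample. Of the 6 measured genes in the list of other mast cell proteases, 2 passed in both samples, Ctsg and Cma2, beside 57.0% of all genes. The genes Mcpt9, Tpsg1 and Prss34 were not analysed here.

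**Figure D3:**
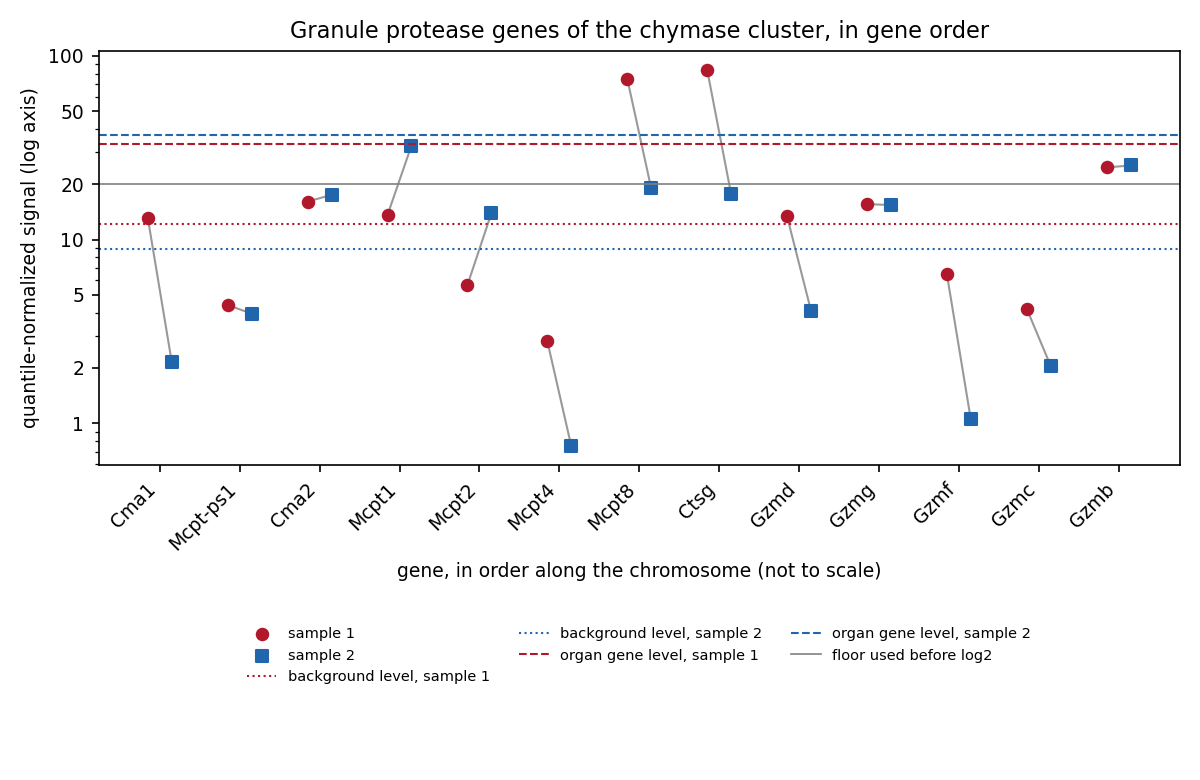
Quantile-normalized signal (log axis) of 13 granule protease genes in their order along chromosome 14 (not to scale), by the strongest probe set of each gene, in sample 1 (circles) and sample 2 (squares). Dotted lines are the background levels, dashed lines the organ gene levels and the grey line the floor of 20. Mcpt8 and Ctsg share high signals in sample 1 (75.2 and 84.2) and signals of 19.0 and 17.7 in sample 2, whereas most neighbours are near or under the background levels.

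In the list of myeloid progenitor granule genes, which holds Ctsg too, 4 of 4 were above the background level, beside 57.0% of all genes. Of these, 3 (Mpo, Elane and Ctsg) were 2-fold or more higher in sample 1, as Mcpt8 was, beside 10.5% of all probe sets above that level. No test of this difference was possible. Their summed signals were 2630 in sample 1, mostly from Mpo, and 736 in sample 2. Myeloperoxidase (Mpo) had 1860 and 288 by its stronger probe set and 67.5 and 23.9 by the other. Neutrophil elastase (Elane) had 220 and 88.4. Proteinase 3 (Prtn3) had 459 and 342, a log2 difference of 0.42. Its SD of 0.3 is under the replicate SD of 0.58. The part of these genes' cells in the Mcpt8 difference was not tested.

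The IgE receptor was not detected in both samples by any of its chains. Fcer1a, the IgE-binding alpha chain, had deposited intensities of 7.0 in sample 1 and 1.9 in sample 2, and normalized signals of 6.95 and 1.75. Both lay under the background levels. Ms4a2, the beta chain, had 7.9 and 8.9 as deposited and 7.75 and 9.15 after normalization, of which only the value of sample 2 was above its background level, by a narrow margin. The gamma chain gene Fcer1g, shared with other Fc receptors, had 7.15 and 3.25 by its stronger probe set and 1.95 and 5.4 by the other. Of the 4 probe sets of these 3 chains, 0 were above the background level in sample 1 and 1 in sample 2. By gene, 0 of the 3 chains passed in both samples, beside 57.0% of all genes. At these signals a low level cannot be told from none. All member values of Fcer1a and Ms4a2 were at the floor, so no fold is given for them.

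Most kinases and adaptors downstream of the receptor, which many blood cells use, did pass. Of 14 measured genes of IgE receptor signalling, 10 (71.4%) were above the background level in both samples, beside the 57.0% of all genes, and the median log2 difference of the 10 was -0.01. The kinase gene Syk, recruited by the gamma chain, had 119 in sample 1 and 219 in sample 2 by its stronger probe set. Its other probe set gave 2.15 and 1.2. The phospholipase gene Plcg2 had 48.4 and 77.2, and the adaptor gene Lat 63.6 and 51.8. Genes 2-fold or more apart went both ways. Inpp5d, the lipid phosphatase SHIP-1 that restrains mast cell activation, was 4.50-fold higher in sample 2 (24.9 and 112), and 1.43-fold by its other probe set. The Src-family kinase gene Fyn was at least 2.77-fold higher in sample 2 (14.8 and 55.4). Vav1, a guanine nucleotide exchange factor, was 2.92-fold higher in sample 1 (79.0 and 27.0). Plcg1 had 10.6 and 47.8 and was not above the background level in sample 1.

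Granule matrix and mediator genes were above the background level in 4 of 10 cases (40.0%), beside 57.0% of all genes. Serglycin (Srgn), the proteoglycan core that stores proteases in granules of mast cells and other blood cells, had 105 in sample 1 and 403 in sample 2, which is 3.84-fold higher in sample 2. Cd63, a granule membrane tetraspanin, had 50.8 and 38.5. Ctsc, the dipeptidyl peptidase that activates granule serine proteases, had 32.6 and 8.95 by its strongest probe set of 3, the second value barely above its background level of 8.91. Histidine decarboxylase (Hdc), the enzyme of histamine synthesis, had 46.9 in sample 1 and 3.55 in sample 2. It was at least 2.34-fold higher in sample 1 and not above the background level in sample 2, the same direction as Mcpt8. The leukotriene synthase gene Ltc4s had 35.1 and 6.35 and was likewise above it only in sample 1. Il4, Il13, Il6 and Tph1 did not pass in both samples.

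Transcription factors of the mast cell and basophil branch were above the background level in 8 of 11 cases (72.7%), beside 57.0% of all genes. The median log2 difference of the 8 was -0.17. The GATA cofactor gene Zfpm1 gave 123 in sample 1 and 296 in sample 2, 2.40-fold higher in sample 2. Stat5a, a mediator of interleukin-3 and stem cell factor signals, had 106 and 144, and 62.8 and 158 by its other probe set. Cebpa, a myeloid factor, went the other way, with 141 and 54.8, 2.57-fold higher in sample 1. Gata2 had 51.2 and 67.8 and Gata1 37.0 and 26.9, both named after their values were seen, and the other probe set of each was lower, at 1.95 and 1.05 for Gata2 and 19.4 and 3.10 for Gata1. Mitf, a regulator of mast cell proteases, had 7.70 and 13.8, above the background level in sample 2 alone.

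Receptors of mast cell and basophil progenitors passed in 4 of 11 cases (36.4%), beside 57.0% of all genes. Kit, the stem cell factor receptor on which the cells were sorted and which mast cells retain, had 25.8 in sample 1 and 19.4 in sample 2. The complement receptor gene C5ar1 had 51.7 and 44.8, and the integrin gene Itgb7, used by mast cell progenitors to enter the gut, 44.5 and 45.7 by its stronger probe set and 4.12 and 3.65 by the other. Csf2rb2, the beta chain specific to interleukin-3, had 28.1 and 26.1. Il3ra, the alpha chain of that receptor, had 4.20 and 32.4 and was above the background level in sample 2 alone. Ly6a, which encodes Sca-1, was not analysed here.

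Markers of the mature cell types gave a partial picture. Of 8 listed mast cell markers 3 were above the background level in both samples (Cpa3, Tpsb2 and Kit), and Cma1, Mcpt4, Fcer1a, Ms4a2 and Hdc were not. Of 3 measured basophil markers 1 was above it, Mcpt8, and over all genes 57.0% were. Of 6 measured eosinophil and basophil genes 0 were above it in both samples, and 4 were so in sample 2, where 71.0% of all genes passed. The 6 genes had summed signals of 19.9 in sample 1 and 69.7 in sample 2. The eosinophil granule genes Epx (4.50 and 10.7) and Prg2 (4.00 and 7.95) were among the 6. The data therefore do not show the full marker set of mast cells, basophils or eosinophils, and the protease signals are described here by gene.

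Genes of other cells that the sorted fraction could hold passed the background level to varying degrees, beside 57.0% of all genes. T cell markers were above the background level in 0 of 6 cases, with summed signals of 27.5 in sample 1 and 36.4 in sample 2. B cell markers passed in 4 of 4, with Ighm at 935 and 667, Cd79b at 38.1 and 38.5, and Ms4a1 at 28.2 and 43.5. The other Ms4a1 probe set had 1.95 and 22.9. Ighm has 16 probe sets, which gave it more chances to pass than a gene with 1. Besides the Ighm probe set quoted, 1 had 102 and 139 and 1 had 125 and 2.15. Most Ighm probe sets were at the floor in both samples. Megakaryocyte markers passed in 1 of 3, Vwf, with 33.0 and 53.8 by its stronger probe set and 6.6 and 5.95 by the other. The megakaryocyte markers Pf4 (15.6 and 4.2) and Gp9 (10.4 and 26.6) did not pass in both samples. Neutrophil markers passed in 4 of 5 and monocyte and macrophage markers in 3 of 5. Neutrophil markers summed to 475 in sample 1 and 1040 in sample 2, and the monocyte and macrophage markers to 296 and 128. By gene, Camp (91.8 and 269) and Ngp (60.0 and 275) were 2-fold or more higher in sample 2, and Csf1r (108 and 39.5) and Cd14 (152 and 65.8) in sample 1. The other Csf1r probe set had 34.8 and 37.4. S100a8 had 301 and 459, and Cd68 23.6 and 17.5. Erythroid markers passed in 2 of 3 and went both ways, with Hba-a1 at 30.1 and 670 and Klf1 at 215 and 80.5. Epor, at 9.55 and 41.5, was not above the background level in sample 1. Whether such cells contributed to the protease signals was not tested.

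**Figure D4:**
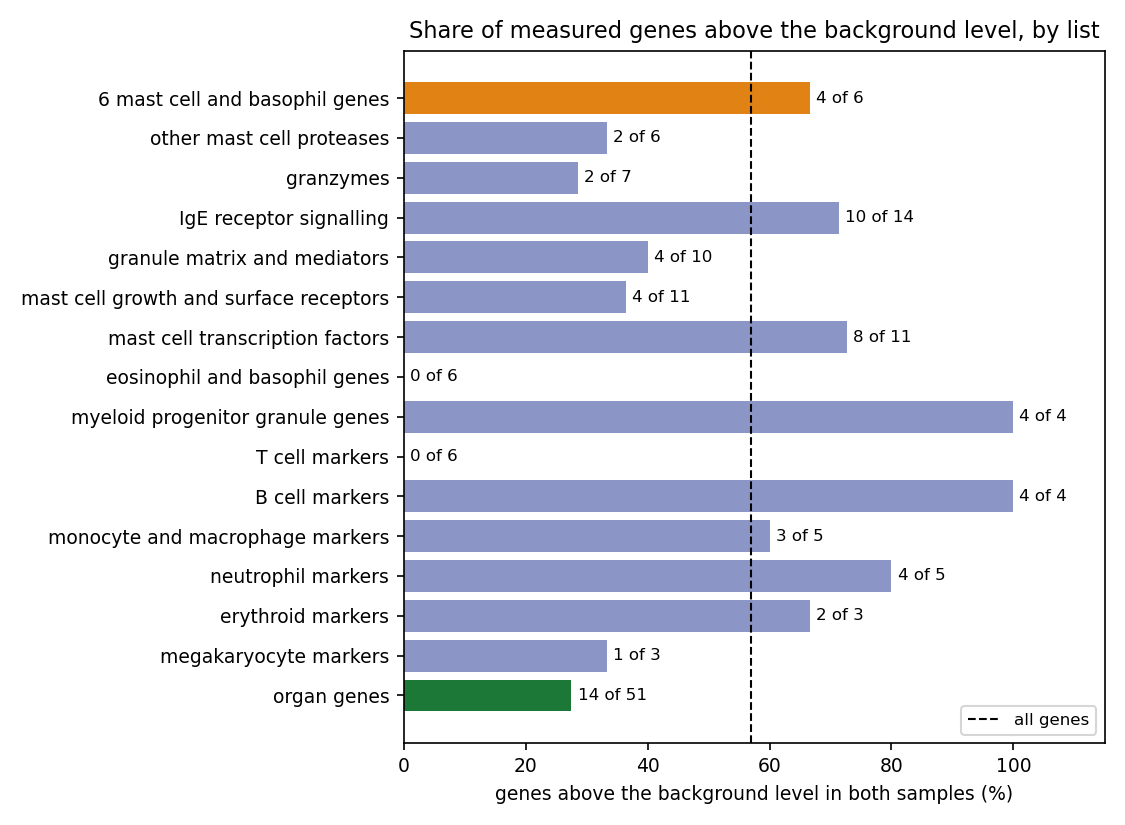
Percentage of measured genes above the background level in both samples for the 6 member genes (orange), 14 other lists (blue) and organ genes (green), with the count of genes beside each bar and a dashed line at 57.0%, the share over all 8251 genes. Signalling and transcription factor genes lie above the line, and other mast cell proteases, eosinophil genes and organ genes lie below it.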

How the data were processed

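Expression was measured on an Affymetrix mouse array in 2 samples. The deposited table holds a linear signal intensity for each of 12488 probe sets, with a mean of 53.944 in both samples. The software and scaling target used by the authors are not given in the sources used here. Of 12422 probe sets besides 66 controls, 10833 named 1 gene in the platform annotation and only these entered genes. Gene IDs matched GRCm38.p6 for 10817, which changed 0 symbols.

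Values were quantile-normalized with numpy 2.4.6 and pandas 2.3.3 under Python 3.11.15, floored at 20 and log2-transformed. A gene was above a level if any of its probe sets exceeded it in both samples, and its value came from the probe set whose mean log2 signal was highest. From each other list, the 3 strongest genes above the background level and any gene 2-fold apart were named. Other genes that are no members and that did not pass (such as Mcpt4, Fcer1g, Il3ra and Mitf) were named after their values were seen. Scripts were tested on simulated data. No test was possible with 1 group. Members, lists and motifs were chosen with earlier results of these data known. Alternatives covered scaling, floor, control level, probe set choice and each sample alone. Promoters came from RefSeq, GRCm38.p6.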

Additional observations from a re-analysis of the deposited data

How the results depend on the processing

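The count of 4 member genes above the background level was 4 with the intensity as deposited and with median-centring. It was also 4 against the highest bacterial probe set, and 5 against the lower bacterial levels. The share over all genes at those lower levels was not computed, but cannot be under 57.0%. The member count was 4 in sample 1 alone and 5 in sample 2 alone, where 64.3% and 71.0% of all genes passed. It was 2 against the organ gene level, 0 where every probe set of a gene had to pass, and 2 without the probe sets of suffix r or f, an alternative chosen after seeing the data that kept Tpsb2 and Mcpt8. Over all genes these last 2 settings left 44.9% and 54.5%, the organ gene level left 25.2% and the highest bacterial probe set 53.0%. The 44.9% is no like share for the 0 members, as it includes genes with 1 probe set, for which the rule changes nothing. Of the 6 members, 4 have 2 probe sets, and the share over genes with 2 was not computed. For the 6 mast cell and basophil lists the count was 28 among 58 measured genes (48.3%), beside 57.0% of all genes. It fell to 13 against the organ gene level, and was 34 in sample 1 alone and 38 in sample 2 alone. No difference of a member changed sign between the settings where it was 2-fold or more. Of 36 alternative member differences, 4 moved by more than the replicate SD of 0.58. These were Mcpt8 with the offset (1.07) and over both probe sets (0.96), Tpsb2 over both probe sets (-0.63) and Fcer1a without the floor (1.99), where both signals are under the background level. No paired analysis was possible because there was 1 group.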
